A study of Mus musculus with 16 samples.

Results

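The creatine kinase and adenylate kinase shuttles were followed through 9 genes in the mouse left ventricle after sham surgery or pressure overload. The mice were controls or carried a conditional knockout of the transcription factor TFEB. The genes were chosen by symbol, as the creatine kinases Ckm, Ckb, Ckmt2 and Ckmt1, the creatine transporter Slc6a8, the creatine synthesis enzymes Gatm and Gamt, and the adenylate kinases Ak1 and Ak3. Earlier results of these data were known when the choice was made. All 9 were found among the 57186 gene IDs of the count table, and 8 of them were among the 15206 genes that passed a filter on low counts; Ckmt1 did not pass. Bulk RNA sequencing was done on whole left ventricular tissue of strain C57/BL6N, with 4 biological replicates in each of 4 groups and 16 libraries in all. Control mice, labelled WT, and conditional knockout mice, labelled cKO-TFEB and here called cKO, each underwent either sham surgery or transverse aortic constriction (TAC). TAC narrows the aorta, so that the left ventricle pumps against a higher pressure. TFEB drives genes of lysosomes and autophagy, and the title of the series links it to lysosomal capacity and mitochondrial function in the failing heart. The labels state neither the Cre driver, nor whether the controls carried Cre or floxed alleles, nor age, sex or the time after surgery.

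Heart muscle makes nearly all of its ATP in mitochondria and spends it at myofibrils and ion pumps. Creatine kinases move the phosphate between these sites: a mitochondrial isoform (Ckmt2 in heart, Ckmt1 in many other tissues) loads it onto creatine beside the inner membrane, and cytosolic isoforms (muscle Ckm and brain-type Ckb, which pair as dimers) return it to ADP where ATP is used. Adenylate kinases convert a pair of ADP molecules into ATP and AMP, Ak1 in the cytosol, while Ak3 in the mitochondrial matrix uses GTP to phosphorylate AMP. Cardiomyocytes take up creatine through Slc6a8 and make little of it, whereas Gatm and Gamt carry out the first and the second step of its synthesis, mainly in kidney, pancreas and liver. Loss of creatine kinase activity and of creatine, with a shift from Ckm toward the fetal isoform Ckb, is a known feature of the hypertrophied and failing heart.

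In WT hearts none of the 8 tested members passed the test after TAC (edgeR adjusted p under 0.05), which 15.8% of all tested genes did. In cKO hearts 5 of the 8 passed, against 26.5% of all tested genes: Ckm, Ckmt2 and Ak1 fell to 0.582, 0.695 and 0.698 times the sham level, and Gatm and Ckb rose to 1.97 and 1.33 times it. The call on Ckb was lost in 9 of 28 alternative settings. Among the fits that left out 1 cKO library, it was kept only without cKO sham replicate 3. Without WT sham replicate 1 Ckb passed in WT hearts as well (log2 0.46, edgeR adjusted p = 0.0143). Without TAC no member passed between the genotypes (1.17% of all tested genes). After TAC (1.78% of all tested genes) Ak1 was lower in cKO than in WT hearts, in a call that was lost in 16 of 28 alternative settings. The difference between both TAC responses, tested as an interaction, passed for no member and for 0.0% of all tested genes.

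Library totals ranged from 12946878 to 16347388 counts. Tfeb itself was at 20.6 to 40.1 CPM (counts scaled to a common library size) in the 8 WT libraries and at 9.12 to 14.7 CPM in the 8 cKO libraries, without overlap. The tissue label was checked with 12 cardiomyocyte genes, all of them detected, and 8 atrial genes. The summed atrial level was 4017 CPM in WT sham replicate 3 and 1549 CPM in WT TAC replicate 4, against 78.5 to 733.8 CPM in the other WT and in the cKO sham libraries and 998.9 to 2004 CPM in the cKO TAC libraries. The sum includes Nppa, which was left out of the atrial level used later as a covariate. Between cKO TAC and cKO sham none of the 7 tested atrial genes passed (26.5% of all tested genes did). Their median log2 difference was -0.82, so the higher sum was not shared by the list. No member that passed after TAC in cKO hearts lost its call, and none was gained, when WT sham replicate 3 and WT TAC replicate 4 were left out. These WT libraries enter the cKO comparison only through the shared filter, scaling and spread. Leaving them out therefore does not test the atrial level of the cKO libraries.

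Promoter sequences of the members that changed and have a single start site in the RefSeq table are shown here to give the regulatory sequence of the genes whose levels parted. Each is the 250 bases before the start site on the gene's own strand (5′ to 3′, RefSeq, GRCm38.p6), and capitals mark TATAAA and CCAAT on either strand. The windows are chr7:19410844-19411093 (plus strand) for Ckm, chr13:91876886-91877135 (minus strand) for Ckmt2, chr12:111672339-111672588 (minus strand) for Ckb, and chr2:122611278-122611527 (minus strand) for Gatm. 
Ckm: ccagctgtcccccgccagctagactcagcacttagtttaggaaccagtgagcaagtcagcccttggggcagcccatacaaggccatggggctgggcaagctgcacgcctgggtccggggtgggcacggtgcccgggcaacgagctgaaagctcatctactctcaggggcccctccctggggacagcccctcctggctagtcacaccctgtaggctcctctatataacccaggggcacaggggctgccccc
Ckmt2: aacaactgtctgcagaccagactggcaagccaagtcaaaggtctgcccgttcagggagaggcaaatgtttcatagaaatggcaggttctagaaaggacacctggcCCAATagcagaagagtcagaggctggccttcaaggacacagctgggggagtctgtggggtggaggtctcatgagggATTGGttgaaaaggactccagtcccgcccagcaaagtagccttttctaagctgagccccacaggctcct
Ckb: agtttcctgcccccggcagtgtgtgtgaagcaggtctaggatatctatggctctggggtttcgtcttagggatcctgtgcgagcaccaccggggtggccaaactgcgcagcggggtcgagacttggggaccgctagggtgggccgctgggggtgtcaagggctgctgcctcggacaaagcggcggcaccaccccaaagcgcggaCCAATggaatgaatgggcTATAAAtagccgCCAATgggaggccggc
Gatm: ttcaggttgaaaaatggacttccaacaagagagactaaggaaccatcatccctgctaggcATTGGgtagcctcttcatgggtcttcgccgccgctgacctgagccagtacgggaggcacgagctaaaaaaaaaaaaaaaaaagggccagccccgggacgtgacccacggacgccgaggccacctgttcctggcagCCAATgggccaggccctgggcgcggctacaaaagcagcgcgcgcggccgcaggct
The Ckb window held TATAAA 28 bases before the start and CCAAT 46 and 16 bases before it. CCAAT stood 145 and 69 bases before the start of Ckmt2 and 190 and 55 bases before that of Gatm. The Ckm window held neither word in this exact form. Near its end it does hold tatataa, a similar run of letters that the exact search for TATAAA did not count. Among the 32851 windows of this length in the table, 12.4% held TATAAA and 33.8% held CCAAT; these words were chosen after the sequences were seen. The palindromic E-box CACGTG (6.02% of windows), its longer form TCACGTGA (0.785%), bound by TFEB and its relatives, and TNAAGGTCA (1.14%), bound by estrogen-related receptors, were searched on both strands in the windows of the 8 members that have one; TCACGTGA holds CACGTG. No window of a member held any of the latter words. These counts describe the letters of this window alone.

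The levels of the 9 genes spanned several orders of magnitude. Per kilobase of annotated exons, Ckmt2 led in WT sham hearts with 1272 CPM per kb ± 43.3 (SD, n = 4), followed by Ckm (335.5 ± 32.9), Ak1 (239.6 ± 18.2), Slc6a8 (45.3 ± 3.01), Ak3 (28.5 ± 2.63), Ckb (21.1 ± 5.29), Gamt (3.41 ± 1.06) and Gatm (1.08 ± 0.0742), with Ckmt1 last at 0.0608 ± 0.0832. Of these neighbours Ak3 and Ckb overlapped between libraries in WT sham hearts, from 25.8 to 32.1 and from 16.2 to 28.5 CPM per kb. In cKO TAC hearts the order of this pair was reversed, with Ckb at 27.5 to 30.7 and Ak3 at 23.5 to 26.8 CPM per kb. The order of Ckb and Ak3 also depends on the gene model: with the annotated transcript lengths in place of the exon union, WT sham Ckb came to 41.4 and Ak3 to 31.6 CPM per kb, and Ckm to between 356.4 and 791.4.

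**Figure D1:**
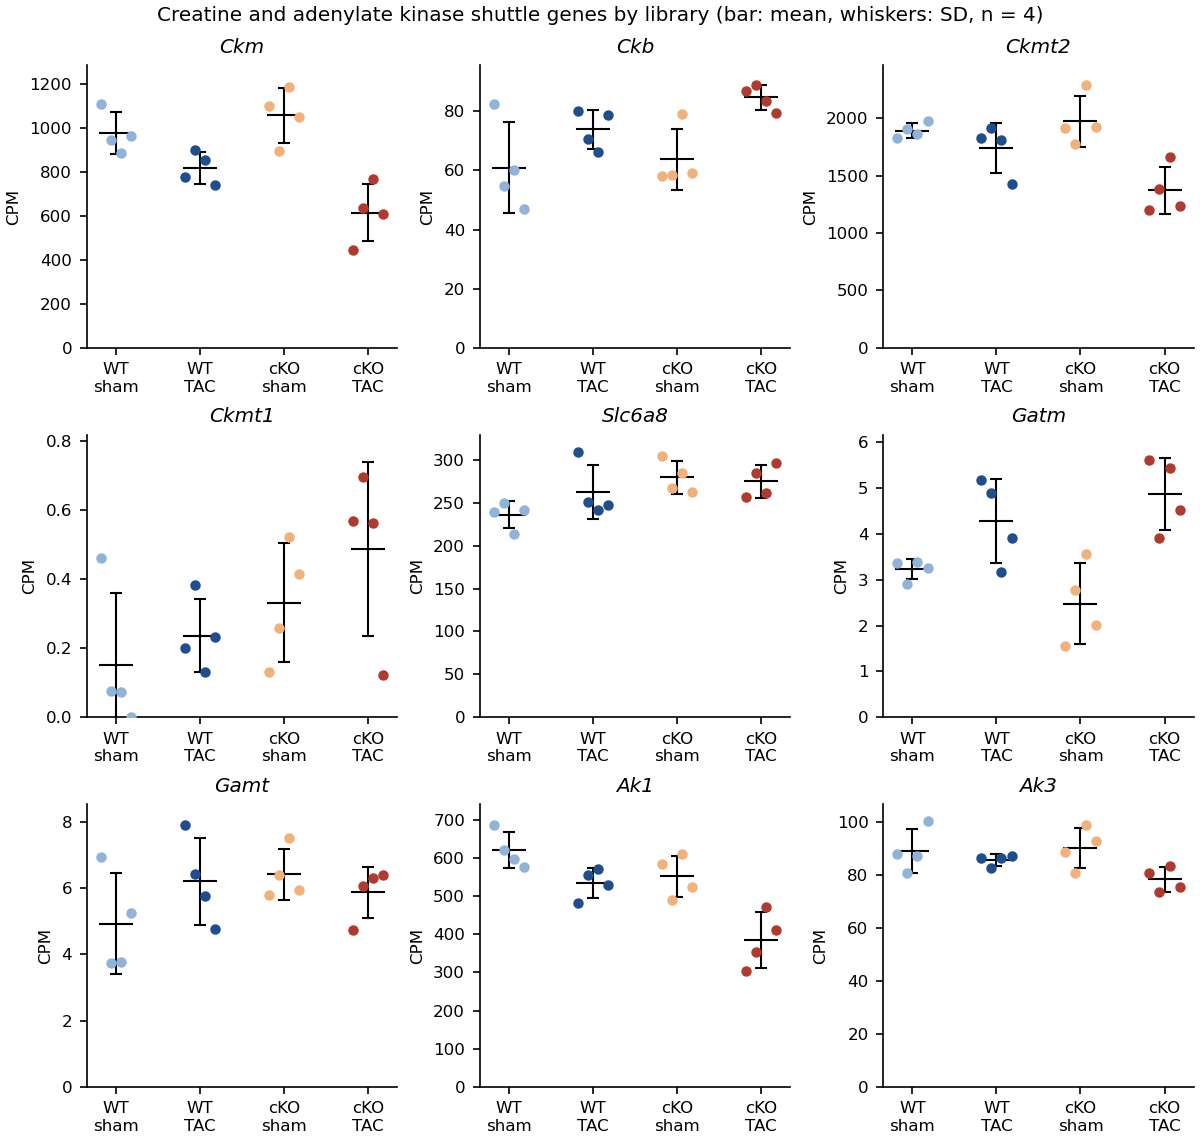
Level of each of the 9 genes in CPM (vertical axis, starting at 0 with its own range in each panel) in the 4 libraries of each group (points), with the mean (horizontal bar) and the SD (whiskers). In the Ckm and Ckmt2 panels every cKO TAC library lies below every cKO sham library, and in the Ckb and Gatm panels every cKO TAC library lies above.

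Ckm encodes the muscle creatine kinase of the cytosol and the M band (ENSMUSG00000030399, chromosome 7). It was measured at 1112, 946, 886 and 966 CPM in sham-operated WT replicates 1 to 4 and at 778, 899, 858 and 741 CPM in WT TAC replicates 1 to 4. In cKO sham it stood at 1102, 895, 1189 and 1051 CPM, and in cKO TAC at 448, 639, 767 and 611 CPM. All 4 cKO TAC libraries lay below all 4 cKO sham libraries, whereas 1 WT TAC library lay within the range of the WT sham libraries. In cKO hearts Ckm fell by 0.78 on the log2 scale after TAC (SE 0.14, edgeR adjusted p = 0.000554), and it passed in all 28 alternative fits of this comparison. Fits that left out only WT libraries gave -0.78 or -0.79. For Ckm and the members below, such fits reach the cKO comparison only through the shared filter, scaling and spread, and hardly test it. In WT hearts the difference was -0.26 (SE 0.14, edgeR adjusted p = 0.21). The interaction was -0.53 (SE 0.19), with an unadjusted p of 0.0133 and an adjusted p of 0.946 by edgeR. After TAC cKO hearts stood at 0.752 times the WT level, a difference of -0.41 (SE 0.14) that did not pass by edgeR (adjusted p = 0.115).

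Ckmt2 encodes the sarcomeric mitochondrial creatine kinase of the intermembrane space (ENSMUSG00000021622, chromosome 13). WT sham replicates held 1824, 1904, 1860 and 1973 CPM, and WT TAC replicates 1827, 1910, 1811 and 1424 CPM. The cKO sham libraries held 1913, 1772, 2287 and 1919 CPM, and the cKO TAC libraries 1199, 1384, 1659 and 1239 CPM. Of the 4 WT TAC libraries, replicates 3 and 4 lay below all WT sham libraries, and replicate 4, the lowest, also held atrial transcripts. The cKO groups did not overlap. Ckmt2 fell by 0.53 on the log2 scale in cKO hearts after TAC (SE 0.12, edgeR adjusted p = 0.00372), again in all 28 alternative fits. The WT difference was -0.12 (SE 0.12, edgeR adjusted p = 0.538), or -0.03 without WT TAC replicate 4, and the interaction was -0.41 (SE 0.17, unadjusted p = 0.0255 and adjusted p = 0.946 by edgeR). Between the genotypes after TAC the difference was -0.35 (SE 0.12, edgeR adjusted p = 0.128).

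Ckb encodes the brain-type cytosolic subunit, a prominent form of the fetal heart (ENSMUSG00000001270, chromosome 12). Its CPM values were 82.4, 54.6, 60.1 and 46.8 in WT sham and 80.3, 70.5, 66.4 and 78.7 in WT TAC. They were 58.2, 58.5, 79.1 and 59.2 in cKO sham and 87.0, 88.9, 83.6 and 79.5 in cKO TAC. WT sham was the most variable group, with replicate 1 above all WT TAC libraries, while the 4 cKO TAC libraries lay close together and above all cKO sham libraries. Ckb rose by 0.41 on the log2 scale in cKO hearts after TAC (SE 0.14, edgeR adjusted p = 0.0358). This call was lost in 9 of 28 alternative fits, 8 of which left out 1 library (WT TAC replicate 2, cKO sham replicate 1, 2 or 4, or any cKO TAC replicate), with adjusted p up to 0.0994. In WT hearts the difference was 0.28 (SE 0.14, edgeR adjusted p = 0.182), and without WT sham replicate 1 it was 0.46 and passed (adjusted p = 0.0143), while without WT sham replicate 4 it was 0.17. The interaction was 0.13 (SE 0.20, edgeR adjusted p = 0.974).

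Ckmt1, the ubiquitous mitochondrial isoform (ENSMUSG00000000308, chromosome 2), was near the limit of detection. WT hearts gave 6, 1, 1 and 0 counts after sham surgery and 3, 5, 2 and 4 after TAC. In cKO hearts the counts were 2, 4, 7 and 6 after sham surgery and 9, 11, 9 and 2 after TAC. The groups overlapped. It did not pass the filter on low counts and was not tested, and a count of 0 in WT sham replicate 4 describes that library at its depth.

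Because the isoforms share coding sequence, reads could in principle be split between them. Between Ckm and Ckb 76.4% of coding bases were identical, between Ckmt2 and Ckmt1 71.6%, and between cytosolic and mitochondrial pairs 66.5% to 68.2%. The longest stretch without a difference was 20 bases for the cytosolic pair and 39 bases for the mitochondrial pair, printed here from the annotated transcripts to show how far the reads of each pair could be confused. 
Ckm and Ckb: atggccaaggtgctgacccc
Ckmt2 and Ckmt1: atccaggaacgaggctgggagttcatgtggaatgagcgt
Read length and the handling of reads with several matches were not given in the sources used here. The pseudogenes Ckb-ps1 and Ckb-ps2 were at 0 counts in all libraries. Antisense genes overlap 451 exon bases of Ckm and 84 of Ckmt2, with 1072 and 779 counts in all against 202588 and 408033 for the kinases.

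The makeup of creatine kinase transcripts was compared within each library, as shares of the 4 isoforms in CPM per kb. Ckmt2 held 78.1% ± 2.12 and 79.2% ± 1.39 in WT sham and WT TAC, and 77.5% ± 0.909 and 79.3% ± 1.52 in cKO sham and cKO TAC (SD, n = 4). Ckb held 1.3% ± 0.329, 1.75% ± 0.331, 1.28% ± 0.0896 and 2.56% ± 0.402 in the same order. The share of Ckb in the cKO TAC libraries ran from 2.05% to 3.03% and that in the cKO sham libraries from 1.19% to 1.38%. Summed over the isoforms, the level was 1629 CPM per kb ± 40.9 and 1479.7 ± 165.4 in WT sham and WT TAC, and 1713 ± 189.9 and 1163 ± 181.5 in cKO sham and cKO TAC. The total was lowest in the cKO TAC group. The shares depend on the length assumed for each gene. With the longest annotated transcript in place of the exon union the mean share of Ckmt2 was 76.2% and 77.0% in WT sham and WT TAC and 75.5% and 76.6% in the corresponding cKO groups, and with the shortest it was 60.5%, 62.1%, 59.6% and 62.5% in the same order. The share of Ckb was 2.46% in cKO sham and 4.86% in cKO TAC with the longest, and 1.94% and 3.97% with the shortest.

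Ratios between members do not depend on how libraries are scaled. Counts of Ckb were 7.41%, 5.77%, 6.79% and 4.85% of those of Ckm in WT sham, and 10.3%, 7.84%, 7.75% and 10.6% in WT TAC. The cKO ratio was 5.29%, 6.54%, 6.65% and 5.63% in cKO sham, and 19.4%, 13.9%, 10.9% and 13.0% in cKO TAC. In both genotypes the TAC libraries lay above all sham libraries, and the cKO TAC libraries lay above the WT TAC libraries. The mean log2 difference after TAC was 0.56 in WT and 1.22 in cKO hearts, or 1.47-fold and 2.33-fold, and between the genotypes after TAC it was 0.63, each with an exact permutation p of 0.0286. This is the smallest p that 4 against 4 libraries can give, and over the 24 ratio tests it adjusts to 0.0857, so none of the 24 passed. Without TAC the ratio differed by -0.03 between the genotypes, within the spread of the libraries (exact permutation p = 0.857). Mitochondrial against cytosolic muscle isoform, Ckmt2 to Ckm, was higher by 0.27 in cKO hearts after TAC (exact permutation p = 0.0286, adjusted p = 0.0857) and by 0.13 in WT hearts (exact permutation p = 0.314, adjusted p = 0.514). These values were 0.18 without cKO TAC replicate 1, 0.05 without WT sham replicate 1 and 0.08 without WT TAC replicate 1.

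**Figure D2:**
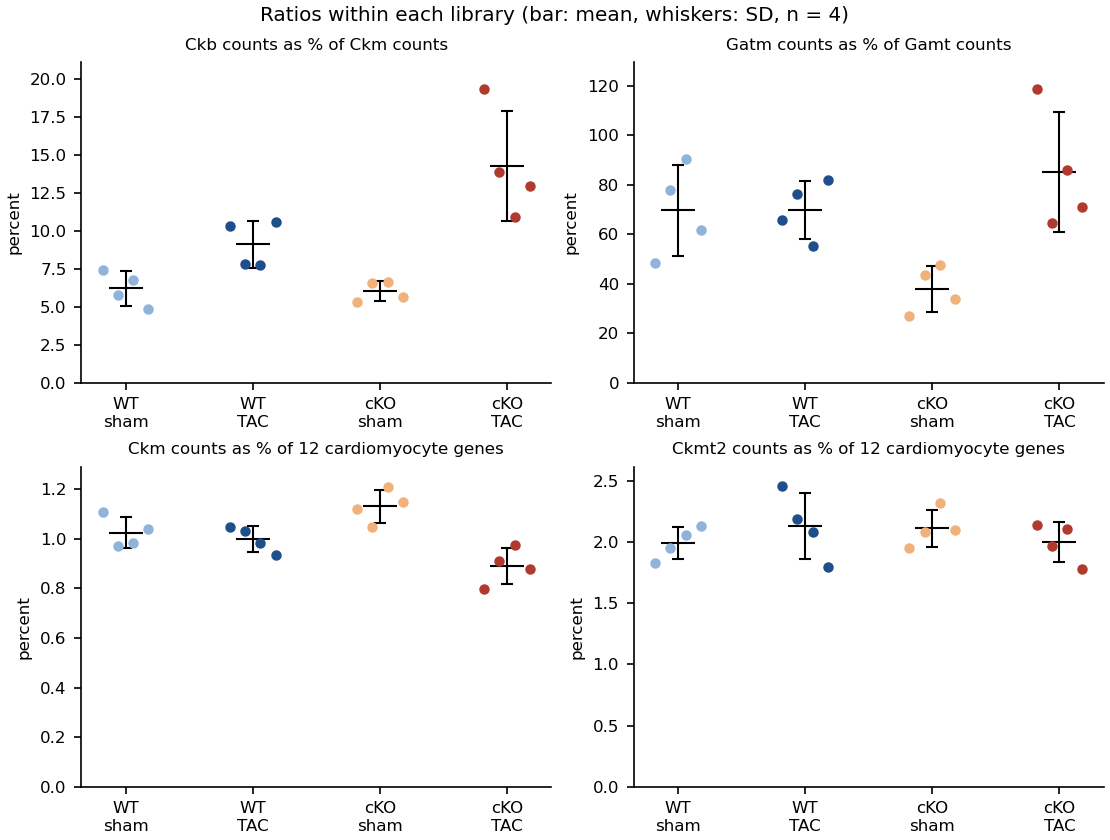
Ratios of counts within each library in percent (vertical axes from 0), for Ckb to Ckm, Gatm to Gamt, and Ckm or Ckmt2 to the summed counts of 12 cardiomyocyte genes; points are the 4 libraries of a group, bars the mean and whiskers the SD. The Ckb to Ckm ratio is 14.3% ± 3.64 in cKO TAC against 6.03% ± 0.673 in cKO sham, while Ckmt2 to cardiomyocyte genes is 2.0% and 2.11%.

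The cardiomyocyte genes moved with these results. Their summed level was 90155 to 99799.9 CPM in sham and 74246 to 87237 CPM in TAC libraries of WT hearts, and 85118 to 98501 and 56076 to 78506 CPM in those of cKO hearts. After TAC 3 of 12 genes were lower in WT hearts (6.14% of all tested genes) and 7 of 12 in cKO hearts (12.4%). In bulk tissue, fewer cardiomyocytes and less RNA per cardiomyocyte cannot be told apart. Set against this list, Ckm was 1.13% ± 0.0651 of its counts in cKO sham and 0.891% ± 0.0743 in cKO TAC, without overlap, a log2 difference of -0.35 (exact permutation p = 0.0286, adjusted p = 0.0857). In WT hearts the same difference was -0.04 (exact permutation p = 0.629). Ckmt2 was 2.11% ± 0.156 and 2.0% ± 0.165 of the list in cKO sham and cKO TAC, with overlapping libraries (log2 difference -0.08, exact permutation p = 0.486). The fibroblast list rose in 5 of 9 genes in WT (9.7% of all tested genes were higher) and in 6 of 9 in cKO hearts (14.2%). In the latter 1 gene fell (12.4% of all tested genes were lower). Its summed levels were 2037 to 2960.3 CPM in sham and 3022 to 4925 CPM in TAC libraries of WT, and 2256 to 3424 and 4239 to 7259.9 CPM in cKO hearts. The macrophage list rose in 5 of 8 genes in WT and in 6 of 8 in cKO hearts, beside the same 9.7% and 14.2% of all tested genes. Its summed levels were 229.4 to 368.8, 415.5 to 554.9, 311.1 to 593.6 and 548.3 to 757 CPM in the same order. All markers of both lists were detected, and their part in the changes of Ckb and Gatm was not tested. Markers of skeletal muscle fibres, which also hold much Ckm and Ak1, summed to at most 22.0 CPM, in cKO TAC replicate 1, the library with the lowest Ckm. Of its 3 tested genes, 1 was higher in cKO TAC than in cKO sham (14.2% of all tested genes) and 1 than in WT TAC (0.598%). Over both surgeries 2 of 3 were higher in cKO hearts (4.21%). None was lower in these comparisons, and the part of such fibres was not tested.

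Slc6a8 carries creatine into the cardiomyocyte (ENSMUSG00000019558, X chromosome). WT sham libraries held 239.6, 249.3, 213.2 and 241.3 CPM and WT TAC libraries 308.8, 251.2, 241.2 and 246.9 CPM. The values after sham surgery in cKO hearts were 304.8, 267.1, 284.5 and 262.3 CPM, and those after TAC 256.6, 285.1, 261.1 and 296.9 CPM. Levels moved within a narrow range. The cKO sham libraries lay above the WT sham libraries without overlap, whereas cKO TAC and WT TAC libraries overlapped (log2 difference 0.07, SE 0.09, edgeR adjusted p = 0.768). No comparison passed. The cKO sham level was 1.19 times that of WT sham, a log2 difference of 0.25 (SE 0.09, unadjusted p = 0.0169 and adjusted p = 0.209 by edgeR). After TAC the difference was 0.15 in WT (SE 0.09, edgeR adjusted p = 0.284; 0.06 without WT TAC replicate 1) and -0.02 in cKO hearts (SE 0.09, 95% interval -0.23 to 0.18, edgeR adjusted p = 0.878).

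Gatm makes guanidinoacetate from arginine and glycine (ENSMUSG00000027199, chromosome 2), and it was scarce, with 24 to 89 counts per library. In WT hearts it was at 3.37, 2.91, 3.40 and 3.25 CPM after sham surgery and at 5.18, 4.89, 3.17 and 3.91 CPM after TAC. In cKO hearts the sham libraries gave 1.56, 2.78, 3.57 and 2.01 CPM and the TAC libraries 5.61, 3.92, 5.44 and 4.53 CPM. The lowest values were in cKO sham and the highest in cKO TAC, without overlap. Gatm rose by 0.98 on the log2 scale in cKO hearts after TAC (SE 0.23, edgeR adjusted p = 0.00495), and this passed in all 28 alternative fits. The WT difference was 0.40 (SE 0.23, edgeR adjusted p = 0.242). No genotype difference passed, with -0.38 in sham (SE 0.24, edgeR adjusted p = 0.476) and 0.19 after TAC (SE 0.22, edgeR adjusted p = 0.732). With 1 library left out the former reached -0.22 (without cKO sham replicate 1) and -0.61 (without cKO sham replicate 3), and the latter 0.07 (without WT TAC replicate 3).

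Gamt methylates guanidinoacetate to creatine (ENSMUSG00000020150, chromosome 10) and had 50 to 119 counts per library. The 4 WT sham libraries gave 6.96, 3.73, 3.77 and 5.26 CPM, against 7.91, 6.42, 5.76 and 4.78 CPM after TAC. For cKO hearts these values were 5.80, 6.41, 7.52 and 5.95 CPM and 4.73, 6.06, 6.31 and 6.41 CPM. The groups overlapped throughout, and no comparison passed. The response to TAC was 0.33 in WT (SE 0.20, edgeR adjusted p = 0.282) and -0.12 in cKO hearts (SE 0.20, 95% interval -0.56 to 0.31, edgeR adjusted p = 0.692). The WT value was 0.55 without WT sham replicate 1 (edgeR adjusted p = 0.0734), 0.22 without WT sham replicate 2 or 3, 0.19 without WT TAC replicate 1 and 0.12 with the atrial level as a covariate. The count ratio of the first to the second enzyme, Gatm to Gamt, was 69.6% ± 18.3 and 69.6% ± 11.8 in WT sham and WT TAC, and 37.9% ± 9.31 and 85.0% ± 24.2 in cKO sham and cKO TAC. The cKO sham libraries lay below those of both WT sham and cKO TAC without overlap, with log2 differences of -0.87 and 1.16 (exact permutation p = 0.0286 and adjusted p = 0.0857 for each).

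Ak1 encodes the cytosolic adenylate kinase (ENSMUSG00000026817, chromosome 2). Sham-operated WT hearts held 686.7, 621.5, 598.7 and 577.8 CPM and WT TAC hearts 483.3, 555, 571.7 and 528.3 CPM. The corresponding cKO hearts held 584, 488.9, 609.3 and 524.6 CPM and 304.2, 353.1, 471.3 and 411.9 CPM. The TAC libraries lay below the sham libraries of their genotype in both cases, and the cKO TAC libraries also lay below all WT TAC libraries. Ak1 fell by 0.52 on the log2 scale in cKO hearts after TAC (SE 0.12, edgeR adjusted p = 0.00408), in all 28 alternative fits. The WT difference of -0.22 did not pass (SE 0.12, edgeR adjusted p = 0.226). After TAC Ak1 was lower in cKO than in WT hearts by -0.47 (SE 0.12, edgeR adjusted p = 0.0499), a call kept in 12 of 28 alternative fits, with adjusted p from 0.00566 to 0.168; with 1 library left out it was kept only without WT sham replicate 1, WT TAC replicate 1, cKO sham replicate 2 or cKO TAC replicate 3. Over both surgeries it was lower in cKO hearts by -0.32 (SE 0.08, edgeR adjusted p = 0.0237), and this passed in 23 of 27 alternative fits, not without WT TAC replicate 3, cKO sham replicate 2 or 4, or cKO TAC replicate 2 (adjusted p up to 0.056). The interaction was -0.30 (SE 0.17, edgeR adjusted p = 0.946).

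Ak3 encodes the adenylate kinase of the mitochondrial matrix (ENSMUSG00000024782, chromosome 19). Levels in WT sham were 87.7, 80.5, 87.1 and 100.2 CPM and in WT TAC 86.4, 82.4, 86.3 and 87.1 CPM. Levels in cKO sham were 88.5, 80.8, 98.6 and 92.8 CPM and in cKO TAC 80.7, 73.4, 83.5 and 75.3 CPM. The cKO TAC group was the lowest, with replicate 3 inside the range of cKO sham. The difference after TAC was -0.20 in cKO (SE 0.08, unadjusted p = 0.0242 and adjusted p = 0.0769 by edgeR) and -0.06 in WT hearts (SE 0.08, edgeR adjusted p = 0.694). Ak3 shares 430 exon bases with Cdc37l1 on the opposite strand, which had 26630 counts in all against 20201 for Ak3, and the strand setting of the counting was not given in the sources used here. The ratio of Ak1 to Ak3 was lower by -0.33 in cKO hearts after TAC (exact permutation p = 0.0286, adjusted p = 0.0857) and by -0.17 in WT hearts (exact permutation p = 0.229, adjusted p = 0.422). The cKO value was -0.21 without cKO TAC replicate 1, and the WT value was -0.11 without WT sham replicate 1 or WT TAC replicate 1 and -0.26 without WT sham replicate 4.

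**Figure D3:**
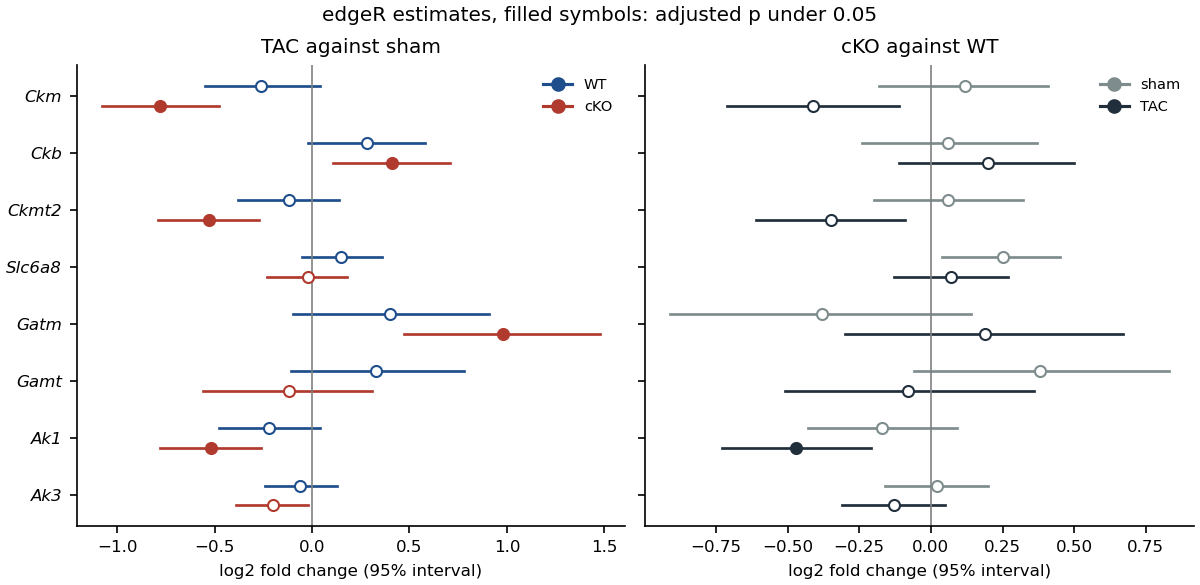
Log2 fold changes of the 8 tested genes by edgeR (horizontal axis) with their 95% intervals, for TAC against sham in WT and cKO hearts (left) and for cKO against WT after sham surgery and after TAC (right); filled symbols have an adjusted p under 0.05. After TAC the 5 filled symbols are all those of cKO hearts, and Ak1 after TAC is the single filled symbol between the genotypes.

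Counts of members were read against all tested genes. Because the members were chosen with earlier results of these data known, these counts are descriptive and do not test the set. In WT hearts 15.8% of the 15206 tested genes passed after TAC (9.7% higher and 6.14% lower), and 0 of 8 members did so. The count of 2409 genes was 1234 without WT TAC replicate 1. No member had an unadjusted p under 0.05 in this edgeR comparison, and the DESeq2 Wald test and limma voom called none either. In cKO hearts 26.5% of genes passed after TAC (14.2% higher and 12.4% lower), and 5 of 8 members did so, 2 higher and 3 lower. The median log2 change of the 8 members that could be tested was 0.05 in WT and -0.16 in cKO hearts, against -0.01 and 0.0 over all tested genes. The WT and the cKO comparison share no library, but they come from 1 fit with a common filter, scaling and estimate of the spread. Leaving out the TAC library of each genotype with the lowest cardiomyocyte level (replicate 1 in both) gave 0 and 4 members, Ckb being the one lost (adjusted p = 0.0937).

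Between the genotypes after sham surgery 1.17% of genes passed (0.618% higher and 0.552% lower) and 0 of 8 members, with 1 member, Slc6a8, at an unadjusted p under 0.05 by edgeR and none called by DESeq2 or voom. After TAC 1.78% of genes passed (0.598% higher and 1.18% lower) and 1 of 8 members. This count of 271 genes depended on single libraries: leaving out each in turn, it ran from 13 genes without WT TAC replicate 2 to 912 without cKO TAC replicate 3. The sham count of 178 genes fell as low as 59 without cKO sham replicate 4. Over both surgeries 9.06% passed (4.21% higher and 4.85% lower) and 1 of 8 members, Ak1 in both cases; this count of 1377 genes was 819 without cKO TAC replicate 2. The interaction passed for 0.0% of genes, with 715 genes and 2 members, Ckm and Ckmt2, at an unadjusted p under 0.05 by edgeR; DESeq2 called 3 genes and voom 0, none of them a member. These comparisons share libraries with each other and with the TAC comparisons.

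Scaling matters for the level of all genes. Scaled by library totals alone, without TMM factors, the median of all genes moved by 0.12 in WT and 0.19 in cKO hearts after TAC, and the passing genes split into 14.3% higher and 2.84% lower in WT and 26.4% higher and 5.77% lower in cKO hearts. On that scale the cKO changes were -0.59 for Ckm, -0.34 for Ckmt2, -0.33 for Ak1, 0.61 for Ckb and 1.17 for Gatm, all past the threshold, and Ckb also passed in WT hearts at 0.41 (edgeR adjusted p = 0.0491).

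Genes around the shuttles were taken from 7 lists. These lists too were chosen with earlier results of these data known, so their counts beside the shares of all tested genes are descriptive. ATP synthase, which makes the ATP that Ckmt2 uses, was covered by 16 tested genes, among them its inhibitor Atp5if1. In cKO hearts 15 of 16, Atp5if1 included, fell after TAC (12.4% of all tested genes), with a median of -0.60. In WT hearts 4 of 16 fell (6.14% of all tested genes), with a median of -0.34. The beta and alpha subunits, Atp5f1b and Atp5f1a, were at 5211 CPM ± 498.5 and 4310 CPM ± 355.4 in cKO sham and at 3535.5 ± 490.6 and 2805 ± 435.6 in cKO TAC (log2 -0.56 and -0.62, edgeR adjusted p = 0.00177 and 0.00101). After TAC 2 of 16 were lower in cKO than in WT hearts (1.18% of all tested genes) with a list median of -0.46, Atp5mc3 (-0.60, edgeR adjusted p = 0.0323) and Atp5pb (-0.47, edgeR adjusted p = 0.0455). After sham surgery none of the 16 passed (0.552% of all tested genes were lower), and their median was -0.22. Over both surgeries 8 of 16 were lower in cKO hearts, with a median of -0.31, beside 4.85% of all tested genes.

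The list of ATP export from mitochondria holds the adenine nucleotide and phosphate carriers, the outer membrane channels and the crista proteins near Ckmt2. In cKO hearts 7 of 11 fell and 1 rose after TAC, with a median of -0.41, where 12.4% of all tested genes were lower and 14.2% higher. In WT hearts 3 of 11 fell and 1 rose, with a median of -0.16, beside 6.14% lower and 9.7% higher over all tested genes. Slc25a4, the heart form of the ADP/ATP carrier, stood at 5016 CPM ± 567.7 in cKO sham, 3115 ± 561.7 in cKO TAC and 4443 ± 444.1 in WT TAC. It fell by 0.69 on the log2 scale in cKO hearts after TAC (edgeR adjusted p = 0.000715) and was lower than in WT after TAC by -0.51 (edgeR adjusted p = 0.0426). The channels Vdac1 and Vdac3 fell in both genotypes, by 0.55 and 0.54 in cKO (edgeR adjusted p = 0.00098 and 0.000645) and by 0.34 and 0.39 in WT hearts (edgeR adjusted p = 0.0335 and 0.0111). Immt, the organiser of crista junctions, fell by 0.54 in cKO hearts (edgeR adjusted p = 0.000626). The gene that rose in both was Slc25a24, a calcium-dependent ATP-magnesium/phosphate carrier, by 1.02 from 6.16 CPM in WT and by 0.79 from 8.3 CPM in cKO hearts (edgeR adjusted p = 0.000754 and 0.00231).

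**Figure D4:**
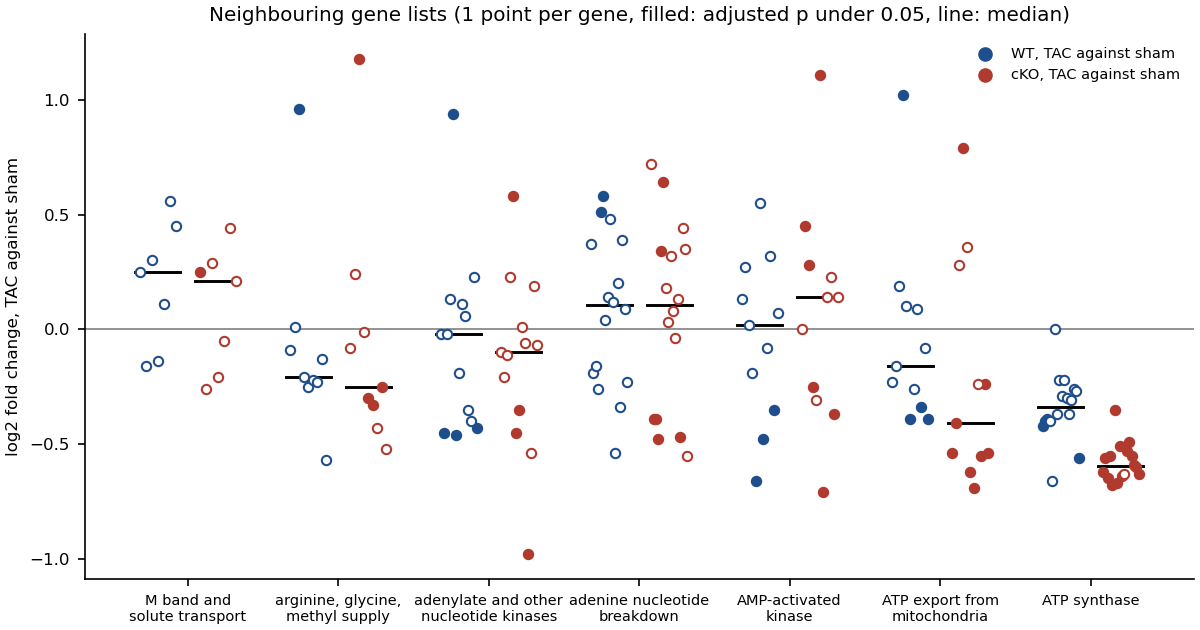
Log2 fold change after TAC (vertical axis) of every tested gene of 7 lists around the shuttles, in WT (blue) and cKO (red) hearts; filled points have an adjusted p under 0.05 and horizontal lines are list medians. The ATP synthase genes lie together at a median of -0.34 in WT and -0.60 in cKO hearts, and the other lists spread to both sides of 0.

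Of 13 other nucleotide kinases tested, 1 rose and 3 fell in each genotype after TAC, 4 of 13 beside 15.8% of all tested genes in WT and 26.5% in cKO hearts. Their medians were -0.02 and -0.10. Ak4, a matrix adenylate kinase, fell by 0.45 in WT hearts (edgeR adjusted p = 0.00178). Dguok, the mitochondrial deoxyguanosine kinase, fell by 0.46 in WT and 0.45 in cKO hearts (edgeR adjusted p = 0.00953 and 0.00691), and Tk2, the mitochondrial thymidine kinase, by 0.43 in WT hearts (edgeR adjusted p = 0.0355). In cKO hearts Nme4, the mitochondrial nucleoside diphosphate kinase, fell by 0.98 from 3.83 CPM (edgeR adjusted p = 0.00467) and the guanylate kinase Guk1 by 0.35 (edgeR adjusted p = 0.0218). Cmpk2, an interferon-induced mitochondrial kinase, was the one that rose, by 0.94 in WT and 0.58 in cKO hearts (edgeR adjusted p = 0.00111 and 0.0142).

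AMP, the product of Ak1, is broken down, salvaged or sensed. Of 16 tested genes of breakdown and salvage, 2 rose in WT hearts after TAC, the AMP deaminase Ampd2 and the adenylosuccinate synthase Adss2 (0.58 and 0.51, edgeR adjusted p = 0.0254 and 0.00533), where 9.7% of all tested genes were higher. The list median was 0.11 in either genotype. In cKO hearts the same 2 genes rose and 4 fell, among them the muscle form Adss1 (-0.48, edgeR adjusted p = 0.00192), the lyase Adsl (-0.39, edgeR adjusted p = 0.0028) and the nucleotidase Nt5c3 (-0.47, edgeR adjusted p = 0.0148), against 14.2% of all tested genes higher and 12.4% lower. Over both surgeries 4 of 16 were higher in cKO than in WT hearts (4.21% of all tested genes) and none lower: the ectonucleotidase Nt5e (0.93, edgeR adjusted p = 0.00442), xanthine dehydrogenase Xdh (0.75, edgeR adjusted p = 0.00634), guanine deaminase Gda (0.63, edgeR adjusted p = 0.0107) and Hprt (0.21, edgeR adjusted p = 0.0329). Xdh was also higher in cKO sham, at 174.8 CPM ± 35.8 against 93.2 ± 21.6 in WT sham (edgeR adjusted p = 0.0414).

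Of 11 subunits and upstream kinases of AMP-activated protein kinase, 3 fell in WT hearts after TAC (6.14% of all tested genes were lower), and 3 rose and 3 fell in cKO hearts (14.2% higher and 12.4% lower). The list medians were 0.02 and 0.14. Prkab2, the muscle beta subunit, rose from 57.4 CPM ± 13.0 to 123.6 ± 49.6 in cKO hearts (log2 1.11, edgeR adjusted p = 0.00382), and the upstream kinase Camkk2 rose by 0.45 (edgeR adjusted p = 0.0155). The gamma subunit Prkag1 fell by 0.71 and the upstream kinase Stk11 by 0.37 in cKO hearts (edgeR adjusted p = 0.00276 and 0.00756), and by 0.48 and 0.35 in WT hearts (edgeR adjusted p = 0.0411 and 0.0171). Prkab1, the other beta subunit, fell by 0.66 in WT hearts (edgeR adjusted p = 0.00311) and was lower in cKO than in WT hearts after sham surgery by -0.57 (edgeR adjusted p = 0.0414).

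Of 9 tested genes that supply arginine, glycine and methyl groups for creatine synthesis, 4 passed in cKO hearts after TAC, 1 higher and 3 lower (26.5% of all tested genes), and 1 in WT hearts (15.8%), with medians of -0.25 and -0.21. Ass1, which makes argininosuccinate, rose in both genotypes, by 0.96 from 2.4 CPM in WT and by 1.18 from 2.73 CPM in cKO hearts (edgeR adjusted p = 0.0132 and 0.00165). In cKO hearts ornithine aminotransferase Oat fell by 0.33, Mat2b, a subunit of methionine adenosyltransferase, by 0.30 and the mitochondrial serine hydroxymethyltransferase Shmt2 by 0.25 (edgeR adjusted p = 0.00868, 0.0244 and 0.0301), and the other 5 of 9 did not pass. Oat was lower in cKO than in WT hearts after TAC as well (-0.38, edgeR adjusted p = 0.0331). Of the 7 M band and solute transport genes, Myom1, which binds creatine kinase at the M band, rose from 1473 CPM ± 35.3 to 1753 ± 75.6 in cKO hearts (log2 0.25, edgeR adjusted p = 0.0436). In WT hearts its difference was also 0.25 and did not pass (edgeR adjusted p = 0.0595). None of the other 6 passed in either genotype.

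The tested genes closest to each member over the 16 libraries were found by the root mean square difference of centred log2 CPM, among 10528 genes with a mean of at least 5 CPM. For Ckm they were Eno3, the muscle enolase (0.083, against a median of 0.40 over all these genes), Slc25a11, the oxoglutarate carrier (0.10), and Sgca, a sarcoglycan (0.11). For Ckmt2 they were the mitochondrial genes Ndufb6 (0.08), Mtx2 (0.088) and Pmpcb (0.092), and for Ak1 Akr1b3 (0.062), Mrpl18 (0.064) and Nudt3 (0.071). Ckb was closest to Ptms (0.10), Bax (0.11) and Tmem132a (0.11), and Gatm, compared with 10529 genes, to Col5a3, a fibrillar collagen (0.19), Cxcl16 (0.23) and Zmynd15 (0.23). Slc6a8 was closest to Map2k3 (0.072), Arl2bp (0.087) and Inpp5a (0.089), Gamt to Lin37 (0.16), Psmb10 (0.17) and Gsto1 (0.18), and Ak3 to Emc3 (0.077), Rnf31 (0.078) and Psmf1 (0.078). Each member's own SD on the log2 scale differed: 0.12 for Ak3, 0.15 for Slc6a8, 0.26 for Ckmt2 and 0.28 for Ckb. It was 0.30 for Gamt, 0.31 for Ak1, 0.37 for Ckm and 0.48 for Gatm. The median distance was 0.24 for Ak3 and 0.26 for Slc6a8, so a small value says less for these 2 members. All points of such a measure share the libraries and their scaling, and it says nothing about shared control.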

How the data were processed

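Values were raw read counts per Ensembl gene ID in 1 table deposited by the authors, unnormalized, for 16 libraries. Per the submitters' processing notes, the tools were featureCounts 2.0.6, HISAT2 2.0.5, SAMtools 1.21, fastp 0.22.0 and FastQC, on build GRCm39; the annotation, strand setting and treatment of multiply mapped reads were not given in the sources used here. Symbols (51880 of 57186 IDs, 99.52% of counts), exon lengths and overlaps came from a GRCm38 annotation (GENCODE M21), matched by gene ID. Promoters came from RefSeq (GRCm38.p6) for 8 of 9 members, Slc6a8 having no entry.

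Genes passing filterByExpr (15206) were fitted in R 4.3.3 with edgeR 4.0.16: TMM factors, 1 mean per group over all 16 libraries, 12 residual degrees of freedom, the robust quasi-likelihood F-test, and Benjamini-Hochberg adjustment over all tested genes with a threshold of 0.05. The biological coefficient of variation was 16.5%. Intervals are 95%, SE comes from the F statistic, CPM is TMM-scaled, and ± is SD. The 6 ratios were tested as log2 values in 4 comparisons by exact two-sided permutation of libraries (70 relabelings), adjusted over 24 tests. Alternatives used DESeq2 1.42.0 size factors or its Wald test, limma 3.58.1 voom, library totals, other filters, no mitochondrially encoded genes, a replicate block, an atrial covariate, the compared groups alone, and 1 library less; 2 further alternatives, leaving out 2 libraries each, and the transcript lengths used for the creatine kinase shares were chosen after seeing the data. The model was checked on simulated data.

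Named genes are the 9 members, up to 4 genes per list and comparison with the smallest adjusted p among those that passed, and 3 genes closest to each member (prior count 2). Members and lists were chosen with earlier results of these data known. Same-numbered replicates were not paired: correlations of their deviations ran from -0.16 to 0.229 over 24 pairs, with 4 over 0.1.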

Additional observations from a re-analysis of the deposited data

Results flagged for a closer look

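Of 56 sets of 4 libraries examined for 1 value far from the others, 2 stood out, where chance alone gives about 1 in 20. Ckb in cKO sham replicate 3 was at 79.1 CPM, against 58.2 to 59.2 CPM in the other cKO sham libraries. Slc6a8 in WT TAC replicate 1 was at 308.8 CPM, against 241.2 to 251.2 CPM in the other WT TAC libraries.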

How the results depend on the processing

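Ckm, Ckmt2, Ak1 and Gatm passed in cKO hearts after TAC in all 28 alternatives, with log2 changes from -0.90 to -0.59, -0.63 to -0.34, -0.63 to -0.33 and 0.81 to 1.20. Those alternatives that left out only WT libraries hardly test this comparison. The count of members that passed in cKO hearts after TAC was 4 to 5 with 1 library left out. With the replicate block 0, 5, 0, 1, 1 and 0 members passed in the 6 comparisons, as without it, and the numbers do not pair the libraries. In WT hearts after TAC 1 member, Ckb, passed with library totals only, and 0 to 1 with 1 library left out. For cKO against WT after TAC no member (0) passed with library totals only, with the compared groups alone, without the 2 WT libraries highest in atrial transcripts or without the TAC library of each genotype lowest in cardiomyocyte transcripts, 2 (Ak1 and Ckm) passed with the atrial covariate, and 0 to 3 with 1 library left out, the 3 (Ak1, Ckm and Ckmt2) without cKO TAC replicate 3. Over both surgeries 0 to 1 passed with 1 library left out, the call on Ak1 being lost without WT TAC replicate 3, cKO sham replicate 2, cKO sham replicate 4 or cKO TAC replicate 2. The cause of these differences was not tested.

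Values that turned their sign were small, and none passed. With library totals only they were 0.01 for Ckmt2 and 0.07 for Ak3 in WT TAC, 0.17 for Slc6a8 and 0.07 for Gamt in cKO TAC, 0.01 for Gamt in cKO against WT after TAC, and 0.00 for Ak3 over both surgeries. With the atrial covariate they were -0.04 for Ckm and -0.06 for Ckmt2 in cKO sham against WT sham and -0.07 for Gamt over both surgeries. Without the TAC library of each genotype lowest in cardiomyocyte transcripts they were 0.00 for Slc6a8 in cKO TAC and 0.15 for Gamt in cKO against WT after TAC. With 1 library left out in turn, the values ran from -0.10 to 0.01 for Ak3 in WT TAC, -0.07 to 0.02 for Slc6a8 in cKO TAC, -0.20 to 0.05 for Gamt in cKO against WT after TAC and -0.05 to 0.25 for Ckb in the interaction. For cKO sham against WT sham they ran from -0.02 to 0.11 for Ckmt2, -0.06 to 0.24 for Ckb, -0.03 to 0.08 for Ak3 and -0.14 to 0.06 for the ratio of Ckb to Ckm. Other ratios ran from 0.00 to 0.13 (Ckmt2 to Ckm, cKO against WT after TAC), -0.14 to 0.16 (Gatm to Gamt, WT TAC) and -0.07 to 0.00 (Ckm to cardiomyocyte genes, WT TAC). Depth limits Ckmt1 most, and Gatm and Gamt next.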
